A study of Mus musculus with 36 samples.

Results

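Cytochrome c oxidase, complex IV of the mitochondrial respiratory chain, contains nuclear-encoded subunits that exist in more than 1 version, and the genes described here are the 10 mouse genes that form 5 such isoform pairs: Cox4i1 and Cox4i2, Cox6a1 and Cox6a2, Cox6b1 and Cox6b2, Cox7a1 and Cox7a2, and Cox8a and Cox8b. They were chosen by symbol, with earlier results of these data known. All 10 were matched to an Ensembl identifier in each of the 6 deposited count tables. These hold 51912 genes for round spermatids, 55487 for morulae and 54838 for each of the other 4. In each pair one gene is referred to as the common isoform (Cox4i1, Cox6a1, Cox6b1, Cox7a2 and Cox8a) and the other as the restricted isoform (Cox4i2, Cox6a2, Cox6b2, Cox7a1 and Cox8b).

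Complex IV passes electrons from cytochrome c to oxygen and pumps protons across the inner mitochondrial membrane. Its catalytic core is encoded by mitochondrial DNA, while the small nuclear-encoded subunits surround this core and adjust its activity and stability. Textbook knowledge assigns Cox6a2, Cox7a1 and Cox8b to heart and skeletal muscle, Cox6b2 to testis, and Cox4i2 to lung and to oxygen-sensing or contractile vascular cells, whereas the common isoforms, often called liver-type, occur in most tissues.

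The 36 libraries came from wildtype C57BL/6 mice (C57BL/6N in the study's methods), 6 per tissue or cell type. Cauda spermatozoa (the mature sperm stored at the end of the epididymis, purified by swim-up and treated to lyse somatic cells, with preparations kept where no somatic cell was seen under the microscope) were taken from males fed on a high-fat diet (HFD, 3 libraries) or a low-fat diet (LFD, 3 libraries) for 2 weeks from 6 weeks of age. Morulae (early embryos of compacting cells) were produced by in vitro fertilization of oocytes from unexposed females with sperm of males fed in the same way (3 libraries each) and cultured for 72 h. Round spermatids, the haploid cells that go on to form sperm, were enriched on a density gradient from HFD-fed and LFD-fed males. Liver, gastrocnemius (a calf muscle) and epididymal white adipose tissue (eWAT) came from male offspring kept on chow and never exposed to either diet, whose fathers had been fed on HFD, and which the study divided into glucose-tolerant (HFDt) and glucose-intolerant (HFDi) animals. The columns of these 4 tables name neither diet nor tolerance, so each of the tissues was treated as 1 group of 6 and diet was compared only in sperm and morulae. A swim-up preparation, a gradient fraction and a whole tissue can all hold other cells, and the mouse behind a tissue column is not known. In the labels of 3 morula samples the title and treatment disagree on the diet with the free description, and the title and treatment were followed here.

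Round spermatids, sperm and morulae were sequenced with Nextera libraries that cover whole transcripts, in paired-ended reads except for sperm, which was read single-ended. Liver, eWAT and gastrocnemius were sequenced with QuantSeq 3′ libraries, which give 1 tag near the end of a transcript. Levels were therefore compared only within each kit, as counts scaled by the library total (CPM) and, for Nextera, also per kb of gene length. The totals assigned to genes were 20138842 to 31056066 counts in round spermatids, 11471251 to 12153141 in morulae, 2560219 to 4062321 in sperm, 2036237 to 2552454 in liver, 1338149 to 4055537 in eWAT and 369772 to 2749920 in gastrocnemius, of which mtDNA-encoded genes took 43.5% to 84.3% in sperm and 1.96% to 2.38% in round spermatids. Where a gene had no count, up to 3 counts remain possible from counting error alone, which is 1.09 to 8.11 CPM in the gastrocnemius libraries. The defining markers of each labelled tissue were present: the summed level of 6 skeletal muscle genes was 43873 to 89475 CPM in gastrocnemius, that of 6 liver genes 47988 to 69231 CPM in liver, that of 6 white fat genes 16480 to 30321 CPM in eWAT, that of 6 spermatid genes 6417 to 8414 CPM in round spermatids and 526 to 1741 CPM in sperm, and that of 6 morula genes 2616 to 3359 CPM in morulae.

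The members of a pair are separate genes with clearly different sequences. The Cox8 pair encodes the smallest of the subunits, and its coding sequences are shown because they illustrate how far the common and the muscle isoform lie apart, which bears on whether a read could be assigned to the wrong member. Cox8a is at chr19:7215158-7217616 and Cox8b at chr7:140898945-140900446, both on the minus strand of GRCm38. The coding sequences span chr19:7215392-7217512 and chr7:140898991-140900342, each in 2 exons, and are printed 5′ to 3′ with capitals for bases that differ between both genes or have no partner in the alignment.
Cox8a: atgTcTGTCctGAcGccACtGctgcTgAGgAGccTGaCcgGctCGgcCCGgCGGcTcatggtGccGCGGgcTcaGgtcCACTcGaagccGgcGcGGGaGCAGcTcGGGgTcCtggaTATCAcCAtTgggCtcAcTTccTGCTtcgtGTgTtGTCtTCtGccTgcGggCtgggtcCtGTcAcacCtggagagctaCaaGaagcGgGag
Cox8b: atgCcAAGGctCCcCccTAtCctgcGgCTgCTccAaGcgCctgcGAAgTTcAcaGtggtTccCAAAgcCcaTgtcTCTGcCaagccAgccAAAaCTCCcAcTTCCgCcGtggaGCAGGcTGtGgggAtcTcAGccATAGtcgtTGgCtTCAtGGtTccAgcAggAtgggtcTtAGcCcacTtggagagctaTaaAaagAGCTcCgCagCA
The 207 and 210 coding bases shared 53.0% of the 215 aligned columns, and their longest identical run was 10 bases. The other pairs were 64.0% (Cox4), 60.9% (Cox7a), 56.5% (Cox6a) and 52.1% (Cox6b) identical. These identities cover coding bases only, while QuantSeq tags lie near the transcript end, which can be outside the coding sequence. Of the annotated transcripts, only AC148174.2 matched a common isoform at 90% identity or more over at least 50% of its length, being 92.7% identical to Cox6a1 over 86.9%. It was listed in the morula table alone, with 52 counts or 1.09% of those of Cox6a1, and was not measured in the other tables. Cox4i1 (chr8:120668222-120674207, plus strand) lies inside the same-strand gene model Gm20388 and shares 352 bases with Emc8 on the other strand. Cox6a2 (chr7:128205435-128206387, minus strand) lies inside Itgad on the other strand. Reads of the overlaps with Emc8 and Itgad are uncertain where strand was not used, and strand cannot separate Cox4i1 from Gm20388.

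The promoter windows also differed between isoform types. RefSeq windows of GRCm38.p6, from 250 bases before to 50 bases after the start of a gene, were matched by symbol for 7 of the 10 genes (Cox6a1, Cox6b1, Cox6b2, Cox7a1, Cox7a2, Cox8a and Cox8b). Those of Cox8a, Cox8b and Cox6b2 are printed because these genes are a common, a muscle and a testis isoform. The windows are chr19:7217567-7217866, chr7:140900397-140900696 and chr7:4753045-4753344, all on the minus strand and read 5′ to 3′, with capitals for CG dinucleotides.
Cox8a: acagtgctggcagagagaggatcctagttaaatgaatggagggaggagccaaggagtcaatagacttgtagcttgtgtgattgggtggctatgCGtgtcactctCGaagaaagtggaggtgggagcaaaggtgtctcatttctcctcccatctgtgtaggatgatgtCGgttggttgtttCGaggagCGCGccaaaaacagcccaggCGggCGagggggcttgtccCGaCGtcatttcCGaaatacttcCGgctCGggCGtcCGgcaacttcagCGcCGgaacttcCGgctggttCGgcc
Cox8b: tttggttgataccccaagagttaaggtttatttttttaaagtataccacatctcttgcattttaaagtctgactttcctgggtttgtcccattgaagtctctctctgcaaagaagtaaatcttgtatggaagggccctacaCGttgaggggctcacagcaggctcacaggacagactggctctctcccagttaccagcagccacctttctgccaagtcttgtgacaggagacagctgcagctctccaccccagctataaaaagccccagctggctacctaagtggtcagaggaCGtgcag
Cox6b2: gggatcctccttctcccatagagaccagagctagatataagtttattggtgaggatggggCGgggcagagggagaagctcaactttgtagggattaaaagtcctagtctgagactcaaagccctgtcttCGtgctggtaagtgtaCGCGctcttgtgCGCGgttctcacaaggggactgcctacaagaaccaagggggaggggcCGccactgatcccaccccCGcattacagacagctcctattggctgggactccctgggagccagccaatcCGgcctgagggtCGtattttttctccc
The common isoforms held 32 (Cox6a1), 20 (Cox7a2), 19 (Cox8a) and 17 (Cox6b1) CG dinucleotides in 300 bases, and the restricted isoforms 10 (Cox6b2), 7 (Cox7a1) and 2 (Cox8b), against a median of 7 over all 32851 windows. On both strands, 5 motifs were searched: CAGCTG (an E-box found in muscle promoters, in 16.3% of all windows), AAGGTCA (a motif of estrogen-related receptors, 4.72%), TGACGTCA (a CRE, 1.79%), the palindromic NRF1 motif (0.971%) and TATAAA (13.6%). The Cox8b window held CAGCTG at positions -19 and 17 from the annotated start and TATAAA at position 5, and the Cox6a1 window held the NRF1 motif at position -162. The windows of the other 5 genes held none of these motifs. A match describes letters and not a bound site.

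The choice of isoform separated muscle and spermatids from the remaining tissues. It was measured as the share of the restricted isoform in the summed level of its pair, from counts in the QuantSeq libraries and from counts per kb in the Nextera libraries. Cox6a2, Cox7a1 and Cox8b each made up more than 50% of their pair in the 6 gastrocnemius libraries and in no other library of the 36, and Cox6b2 did so in the 6 round spermatid libraries and in no other. Cox4i2 reached 50% in none. The COX8 share covers Cox8a and Cox8b only and leaves out Cox8c, a testis isoform of COX8 described below. The members were proposed with earlier results of these data known, so these shares are given as a description without a test.

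**Figure D1:**
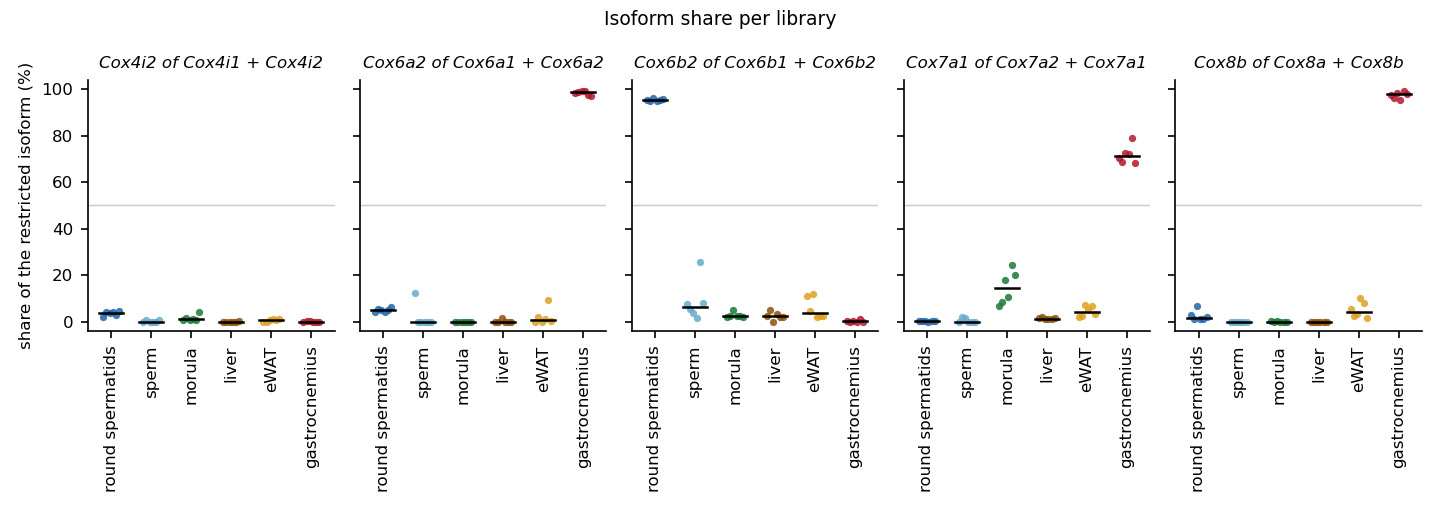
Share of the restricted isoform in its pair (percent, y axis) in each of the 36 libraries, by tissue (x axis), with 1 panel per pair. Points are libraries and the black bars are medians. Gastrocnemius stands at medians of 98.8% for Cox6a2, 71.3% for Cox7a1 and 97.8% for Cox8b, round spermatids at 95.5% for Cox6b2, and Cox4i2 stays at or below 4.46% everywhere.

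In gastrocnemius the switch was nearly complete for the COX6A and COX8 subunits and partial for COX7A. Cox6a2 made up 97.2% to 99.2% of its pair (98.4% ± 0.817, SD, n = 6), Cox8b 95.6% to 99.1% (97.5% ± 1.38) and Cox7a1 68.3% to 79.2% (71.9% ± 3.95). The remaining COX7A tags in every muscle library were those of the ubiquitous gene Cox7a2. No such switch was seen for COX6B or COX4 in muscle, where Cox6b2 had 3 counts and Cox4i2 3 counts over the 6 libraries.

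The muscle-type isoform Cox6a2, which replaces the liver-type subunit COX6A1 in contractile tissue, had the highest level of the 10 genes in the QuantSeq libraries. Its level was 852 to 1953 CPM in gastrocnemius (median 1434), 0 to 26.9 CPM in eWAT (median 2.00) and 0 in 5 liver libraries. The remaining liver library, of 2036237 counts, held 7 counts or 3.44 CPM, and its summed skeletal muscle markers stood at 82.0 CPM against 12.5 to 31.9 CPM in the other liver libraries. The lowest gastrocnemius value lay above every value of the other tissues. Differences are given on the log2 scale, from edgeR's two-sided quasi-likelihood test over 6 libraries per tissue, with p adjusted for all genes tested and a threshold of 0.05. Their standard error (SE) was derived as the size of the difference over the square root of the test's F statistic. It is only approximate where a group is at or near 0 counts. The difference of gastrocnemius over liver was 11.33 ± 0.99 on the log2 scale (SE, edgeR adjusted p = 6.3e-10), and that over eWAT was 8.74 ± 0.81 (adjusted p = 2.39e-09).

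Cox6a1, the partner of Cox6a2, showed the opposite order. It had 11.6 to 46.0 CPM in gastrocnemius (median 17.7), 219 to 251 CPM in liver (median 229) and 228 to 296 CPM in eWAT (median 268). Every gastrocnemius library was below every library of the other tissues, while liver and eWAT overlapped in CPM of library totals but not after TMM scaling. Gastrocnemius was lower than liver by -3.57 ± 0.23 (log2, edgeR adjusted p = 2.12e-12) and lower than eWAT by -2.83 ± 0.22 (adjusted p = 1.49e-10).

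Cox8b encodes the muscle form of the smallest subunit. Its level was 253 to 603 CPM in gastrocnemius (median 321) and 1.60 to 7.15 CPM in eWAT (median 1.98, 65 counts), and no liver library held a count. The 3 tissues did not overlap. Bounds were taken in CPM of library totals, with up to 3 counts allowed over the 6 liver libraries together. On that scale Cox8b was at least 1529-fold higher in gastrocnemius and at least 16.5-fold higher in eWAT than in liver. On the TMM scale of the test the bound for eWAT would be lower. The edgeR test gave adjusted p = 2.83e-12 and 0.000469. Gastrocnemius exceeded eWAT by 7.58 ± 0.40 on the log2 scale (adjusted p = 9.96e-12).

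The common partner Cox8a had 5.34 to 14 CPM in gastrocnemius, 14.2 to 42.6 CPM in liver and 40.4 to 101 CPM in eWAT. In CPM of library totals gastrocnemius lay below the other tissues in every library, by only a small gap to the lowest liver library, and on the TMM scale of the test it overlapped with liver (up to 17.9 CPM against 17.2 CPM and more). It was lower than liver by -1.52 ± 0.33 (log2, edgeR adjusted p = 0.000345) and lower than eWAT by -1.86 ± 0.33 (adjusted p = 2.9e-05). The difference of eWAT over liver, 0.34 ± 0.28, did not pass the test (adjusted p = 0.306), but was 1.27 with an adjusted p of 0.000414 when library totals replaced TMM scaling, and the adjusted p ranged from 0.000414 to 0.560 over all alternatives.

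Cox7a1 encodes the heart and muscle form of COX7A and Cox7a2 the form found in most tissues. Cox7a1 stood at 339 to 719 CPM in gastrocnemius (median 421), 2.99 to 13.1 CPM in eWAT (median 8.90) and 1.57 to 4.42 CPM in liver (median 3.02). Gastrocnemius did not overlap with the other tissues, and was higher than liver by 7.30 ± 0.32 (log2, edgeR adjusted p = 6.96e-15) and higher than eWAT by 6.60 ± 0.29 (adjusted p = 3.32e-14). Cox7a2, in contrast, had similar ranges of 132 to 238 CPM in gastrocnemius, 161 to 206 CPM in eWAT and 164 to 364 CPM in liver. After TMM scaling eWAT lay below both other tissues without overlap. Its difference of gastrocnemius over liver was -0.27 ± 0.19 (adjusted p = 0.222), and its difference over eWAT, 0.87 ± 0.19 (adjusted p = 0.000462), had the other sign with library totals (-0.10, adjusted p = 0.628, the highest over the alternatives run). The summed COX7A level was 473 to 909 CPM in gastrocnemius against 165 to 369 CPM in liver.

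Cox4i1, the ubiquitous form of the subunit that carries the ATP-binding regulation of the complex, overlapped between the 3 tissues. It had 151 to 246 CPM in gastrocnemius, 142 to 225 CPM in liver and 188.6 to 361 CPM in eWAT. Gastrocnemius over liver was 0.17 ± 0.18 (log2, edgeR adjusted p = 0.405). Gastrocnemius over eWAT was 0.62 ± 0.18 (adjusted p = 0.00358), and -0.37 with library totals. Cox4i2, the isoform induced by low oxygen, had 34 counts in eWAT (0 to 2.96 CPM), 3 in gastrocnemius and 2 in liver and was too low to be tested, although summed pericyte markers stood at 320 to 773 CPM in eWAT and 425 to 578 CPM in gastrocnemius.

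Cox6b1, the common form of the subunit that faces the intermembrane space, was higher in gastrocnemius (196.3 to 267 CPM, median 227) than in liver (92.1 to 138 CPM) and eWAT (90.4 to 169 CPM), with no overlap. The log2 differences were 1.02 ± 0.17 over liver (edgeR adjusted p = 1.16e-05) and 1.59 ± 0.17 over eWAT (adjusted p = 2.15e-08). Cox6b2 stood at 0 to 4.91 CPM in liver, 3.45 to 21.4 CPM in eWAT and 0 to 2.70 CPM in gastrocnemius and was too low to be tested.

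**Figure D2:**
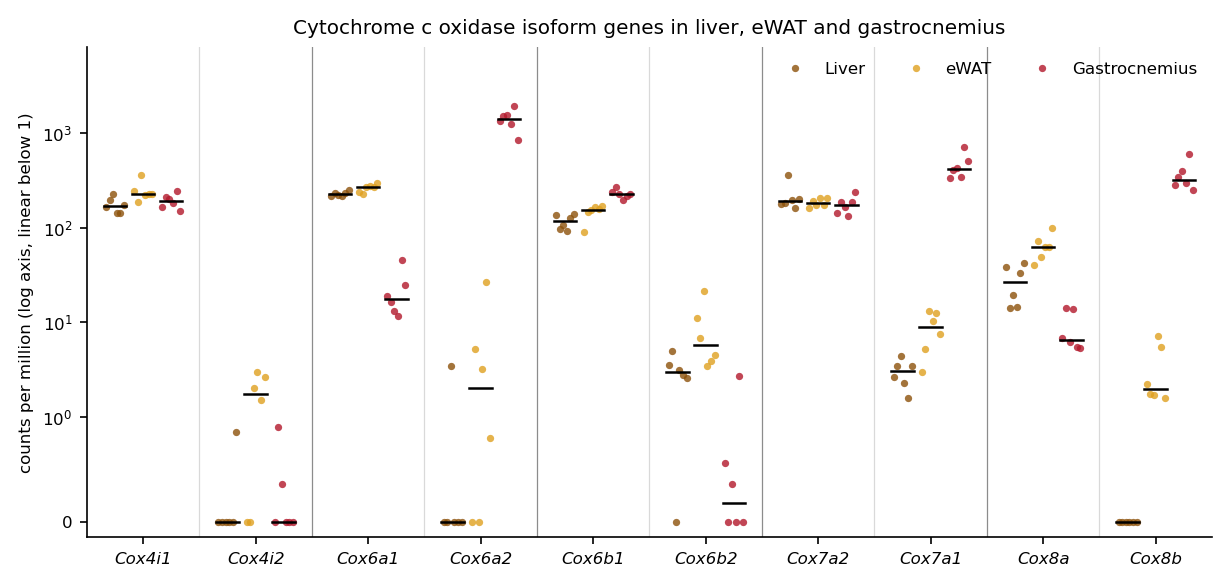
Level of each of the 10 genes in liver, eWAT and gastrocnemius, in CPM of QuantSeq 3′ counts (y axis, linear near 0 and logarithmic above), with 1 point per library and a black bar for the median of 6. Cox6a2, Cox7a1 and Cox8b rise from 26.9 CPM or less to 253 CPM or more in gastrocnemius, Cox6a1 and Cox8a are lowest there, and Cox4i1 and Cox7a2 overlap in all 3 tissues.

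Of the 10 genes, 8 were high enough to be tested in this fit. Cox6a2, Cox7a1 and Cox8b passed the filter on low counts only through gastrocnemius. Their calls as higher there, and the medians below, therefore follow in part from the filter. Between gastrocnemius and liver 6 of 8 passed the test, 4 higher and 2 lower, where 66.4% of all 10851 genes passed. Their median log2 difference was 0.59, against -0.06 over all genes, and is the same with Cox8b set to its lower bound. Between gastrocnemius and eWAT 8 of 8 passed, 6 higher and 2 lower (67.4% of all genes, median 1.23 against -0.35). With library totals this became 4 higher and 2 lower. Between eWAT and liver 5 of 8 passed, 1 higher and 4 lower (61.6% of all genes, median -0.06 against 0.07), which nearly turned round with library totals to 6 higher and 0 lower, with a median of 0.89. The share of members called was above the background against eWAT and near it in the other 2 comparisons.

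The direction of small differences against eWAT depended on scaling. The TMM factors, which rescale library totals, were 1.45 to 1.75 in eWAT, 0.756 to 0.844 in liver and 0.740 to 0.849 in gastrocnemius. With library totals the median difference over all genes moved from -0.35 to -1.33 for gastrocnemius over eWAT and from 0.07 to 1.01 for eWAT over liver, and the genes higher and lower changed from 2854 and 4464 to 1204 and 7413 in the first and from 3544 and 3138 to 7062 and 1388 in the second. The 4 common isoforms Cox4i1, Cox6a1, Cox6b1 and Cox7a2 were lower in eWAT than in liver, and for all but Cox7a2 the sign turned with library totals. The log2 difference was -0.73 ± 0.19 for Cox6a1 (edgeR adjusted p = 0.00178, 0.21 with library totals), -0.58 ± 0.17 for Cox6b1 (adjusted p = 0.00431, and higher by 0.36 with library totals, adjusted p = 0.0439) and -0.45 ± 0.17 for Cox4i1 (adjusted p = 0.0288, and higher by 0.51 with library totals, adjusted p = 0.0109). Cox7a2 was lower by -1.14 ± 0.19 (adjusted p = 1.99e-05), and by -0.19 with library totals (adjusted p = 0.347, the highest over the alternatives run). Cox7a1 (0.70 ± 0.34, adjusted p = 0.0744) and Cox6a2 (2.59 ± 1.16, adjusted p = 0.0562) did not pass. With library totals the differences of eWAT over liver were 1.64 for Cox7a1 (adjusted p = 0.000134) and 3.48 for Cox6a2 (adjusted p = 0.00661), and over all alternatives the adjusted p ranged from 0.000134 to 0.192 and from 0.00255 to 0.525. Single libraries decided some of these calls. Without the eWAT library of 3305967 counts Cox4i1 missed the threshold (adjusted p = 0.053), without the eWAT library of 3512177 counts Cox6a2 passed it (2.91, adjusted p = 0.0125), and without the gastrocnemius library of 369772 counts, which shares the fit, Cox7a1 passed it (0.73, adjusted p = 0.0485).

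Within eWAT and gastrocnemius, 3 single libraries with the highest share of an isoform also had the highest level of a marker list, and others did not. In the eWAT library of 3305967 counts Cox6a2 had 89 counts, or 9.16% of its pair (95% Wilson interval 7.50% to 11.1%, for counting error only), against 0% to 2.21% in the other eWAT libraries. The 6 skeletal muscle markers summed to 1328 CPM in this library and to 40.4 to 388 CPM in the others. The muscle isoforms Cox7a1 (6.63% of its pair) and Cox8b (7.93%) were not at their highest there, and reached 7.06% and 10.3% in other eWAT libraries. Without the 2 eWAT libraries that stood apart in their markers, the Cox6a2 share was 0% to 2.21%. The part of muscle RNA in the Cox6a2 value was not tested.

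Cox6b2, the testis isoform, made up 12.1% of its pair (75 counts, 95% Wilson interval 9.78% to 14.9%) in the eWAT library of 3512177 counts. This library had the highest summed Sertoli and Leydig markers (334 CPM against 14.1 to 25.2 CPM) and the highest summed spermatid markers (62.4 CPM against 0.740 to 3.44 CPM) of the 6. In the Sertoli and Leydig list, however, Amh and Hsd3b1 were at 0 in all eWAT libraries. The same list summed to 58.4 to 98.0 CPM in liver. Cox6b2 made up 11% of its pair also in the eWAT library of 1338149 counts, on 15 counts (6.80% to 17.4%), with spermatid markers at 2.99 CPM. The part of testis RNA in these values was not tested. Cox8b reached 10.3% of its pair in the eWAT library of 4055537 counts (29 counts, 7.28% to 14.4%), while Ucp1 and Otop1, markers of thermogenic fat, were at 0 in all eWAT libraries and the brown fat list as a whole summed to 7.40 to 32.2 CPM.

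In gastrocnemius the highest share of Cox7a1 came from the library of 369772 counts, the shallowest of the series. There Cox7a1 made up 79.2% of its pair (95% Wilson interval 74.5% to 83.2%) and 68.3% to 72.4% in the other 5. The same library held 5576 CPM of heart and slow muscle markers, against 120 to 631 CPM in the others. The part of slow fibres in this share was not tested, and without the library the median Cox7a1 share was 70.4%.

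**Figure D3:**
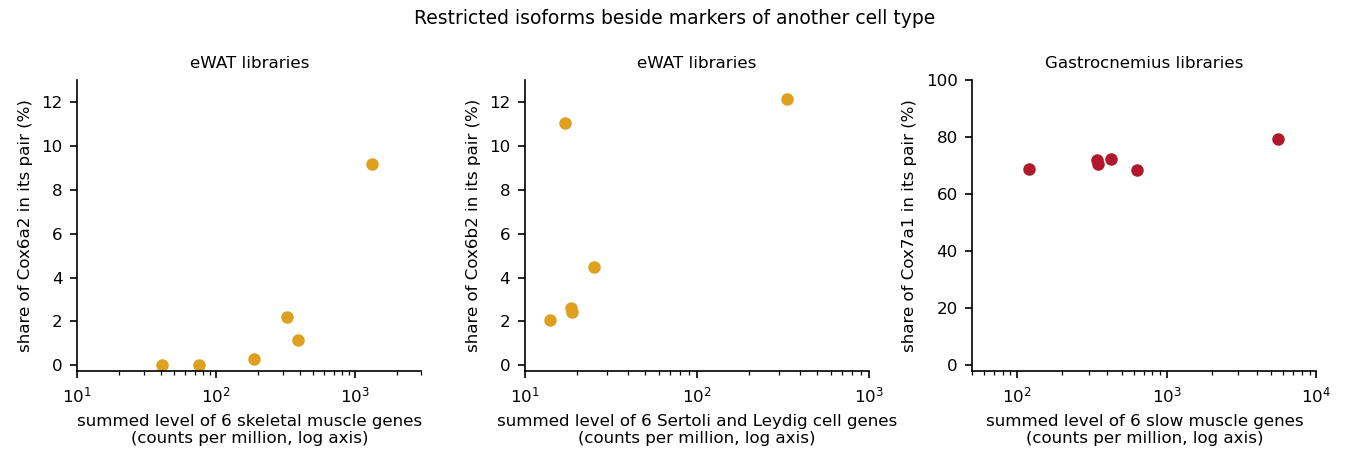
Isoform share (percent of the pair, y axis) against the summed level of a marker list (CPM, logarithmic x axis), 1 point per library, in panels for Cox6a2 and skeletal muscle markers in eWAT, Cox6b2 and Sertoli and Leydig markers in eWAT, and Cox7a1 and slow muscle markers in gastrocnemius. In each panel the library with the highest marker sum (1328, 334 and 5576 CPM) also has the highest share (9.16%, 12.1% and 79.2%). Cox7a1 and Cox8b in eWAT, which are not shown, did not have their highest share in the library with the most skeletal muscle markers.

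The genes whose levels across the 18 QuantSeq libraries were most like those of the 3 muscle isoforms were sought among the 10851 genes tested. Pearson's r of log2 CPM was 0.995 for Cox6a2 with Ttn and with Xirp2 and 0.994 with Lrrc30. For Cox7a1 it was 0.993 with Myot and 0.991 with Nrap, and for Cox8b 0.994 with Ank1, 0.993 with Abra and 0.992 with Alpk3. The points fall into 3 tissues and are not independent.

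The rest of complex IV was compared over lists of structural genes, assembly factors, mtDNA-encoded subunits and cytochrome c. Of the other structural genes (10 listed), 6 were tested, and 4 were higher and none lower in gastrocnemius than in liver, with Ndufa4, a subunit first assigned to complex I, at the top (2.45 ± 0.48, edgeR adjusted p = 9.54e-05) and Cox7a2l, a factor that joins complex IV into supercomplexes, at the bottom (-0.53 ± 0.34, adjusted p = 0.176). Against eWAT 5 of 6 were higher and none lower, or 3 higher and 1 lower with library totals. Between eWAT and liver 4 of 6 were lower and none higher, or 1 lower and 1 higher with library totals. Of 25 assembly factors 21 were tested, and 7 were higher and 5 lower in gastrocnemius than in liver, from 2.22 ± 0.43 for the copper chaperone Cox17 (adjusted p = 8.76e-05) to -4.23 ± 0.36 for Sco2, a copper delivery factor (adjusted p = 4.41e-10). Against eWAT 11 were higher and none lower, which turned to 5 higher and 10 lower with library totals. Between eWAT and liver none were higher and 13 lower, which turned to 7 higher and 2 lower with library totals. Of the mtDNA-encoded subunits mt-Co1 was higher in gastrocnemius than in liver (0.99 ± 0.19, adjusted p = 0.000103), and mt-Co2 and mt-Co3 had no count in any QuantSeq library. Cycs, the somatic cytochrome c that feeds the complex, was higher in gastrocnemius than in liver by 1.72 ± 0.21 (adjusted p = 1.22e-07).

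Round spermatids used the testis isoform of COX6B. Cox6b2 made up 94.9% to 96.1% of its pair (95.5% ± 0.416, SD, n = 6), against 2.12% to 4.90% in morulae and 1.40% to 25.5% in sperm. It was also the most abundant of the 10 genes per kb in round spermatids, at 199 to 217 CPM per kb (median 204), while its partner Cox6b1 had 8.26 to 10.7 CPM per kb. In morulae Cox6b2 had 0.761 to 2.36 and in sperm 0.301 to 5.58 CPM per kb. Round spermatids did not overlap with either. Cox6b2 was higher in round spermatids than in morulae by 7.16 ± 0.37 (log2, edgeR adjusted p = 1.08e-12) and lower in sperm than in round spermatids by -5.14 ± 0.36 (adjusted p = 2.07e-10).

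For Cox6b1 the order was reversed. It had 31.7 to 48.1 CPM per kb in morulae and 6.14 to 65.1 in sperm. It was lower in round spermatids than in morulae by -2.37 ± 0.26 (log2, edgeR adjusted p = 5.47e-08) and higher in sperm than in round spermatids by 2.88 ± 0.27 (adjusted p = 1.41e-08). In bulk samples of this kind, fewer cells of a type and less RNA per cell cannot be told apart.

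The muscle isoforms were low but not uniformly absent in round spermatids. Cox6a2 stood at 3.25 to 4.67 CPM per kb (median 3.63), 4.31% to 6.23% of its pair, whereas the 6 morula libraries held no count of it. With up to 3 counts allowed over the morula libraries, it was at least 59.2-fold higher in round spermatids in CPM of library totals. The TMM-scaled edgeR test gave an adjusted p of 9.38e-07. The 4 counts of Cox6a2 in sperm came from a single library, and its lower level there (-2.27 ± 0.81, adjusted p = 0.0197) did not pass with DESeq2 (adjusted p = 0.123) or without the LFD library of 2560219 counts (adjusted p = 0.0612). Its adjusted p ranged from 0.000143 to 0.123 over all alternatives. Because Cox6a2 lies inside Itgad on the other strand and the Nextera kit does not mark strand, its low Nextera counts cannot be told apart from reads of that gene. Cox8b had 12 counts in round spermatids, 2 in morulae and none in sperm.

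Cox7a1 differed from the other muscle isoforms in that its level among these cells was highest in morulae. Its level was 2.00 to 8.86 CPM per kb in morulae (median 4.27) and 0.0756 to 0.529 in round spermatids, without overlap, and 2 counts were found in sperm. In morulae it made up 6.91% to 24.3% of its pair, a wide range that is described by paternal diet below. Cox7a1 was lower in round spermatids than in morulae by -4.56 ± 0.45 (log2, edgeR adjusted p = 1.16e-08). Its sperm over round spermatid difference, 0.86 ± 1.19, did not pass (adjusted p = 0.526) and had the other sign with library totals (-0.28).

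Among the common isoforms, round spermatids had more Cox7a2 and less Cox8a than morulae. Cox7a2 stood at 115 to 138 CPM per kb in round spermatids, 25 to 31.8 in morulae and 3.17 to 38.9 in sperm. It was higher in round spermatids than in morulae by 1.95 ± 0.22 (log2, edgeR adjusted p = 7.5e-08) and lower in sperm than in round spermatids by -1.70 ± 0.23 (adjusted p = 1.62e-06). Cox8a had 7.21 to 9.69 CPM per kb in round spermatids against 77.8 to 126 in morulae, a difference of -4.02 ± 0.35 (adjusted p = 1.51e-09), and 7.48 to 113 in sperm, which was higher than round spermatids by 3.60 ± 0.35 (adjusted p = 1.79e-08).

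Cox4i1 and Cox6a1 differed least between these cells. Cox4i1 had 67.4 to 77.0 CPM per kb in round spermatids and 68.9 to 86.0 in morulae, which overlapped on this scale but not after TMM scaling, and their difference (-0.39 ± 0.20, edgeR adjusted p = 0.0723) did not pass. In sperm it ranged from 14.6 to 199 CPM per kb, with a difference over round spermatids of 1.26 ± 0.20 (adjusted p = 1.4e-05) that was 0.27 with library totals (adjusted p = 0.557, the highest over the alternatives run). Cox6a1 was lower in round spermatids (67 to 72.2 CPM per kb) than in morulae (81.7 to 103) by -0.74 ± 0.20 (adjusted p = 0.00189, and 0.373 with library totals). In sperm it ranged from 11.2 to 145 CPM per kb, which did not pass against round spermatids (0.38 ± 0.21, adjusted p = 0.104) and had the other sign with library totals (-0.59). Cox4i2 had 1.72 to 3.15 CPM per kb in round spermatids, 0.418 to 3.45 in morulae and 5 counts in sperm. Its round spermatid over morula difference of 0.82 ± 0.43 did not pass (adjusted p = 0.0767), and sperm was lower than round spermatids by -1.79 ± 0.73 (adjusted p = 0.0337, and 0.0805 with mtDNA-encoded genes left out).

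**Figure D4:**
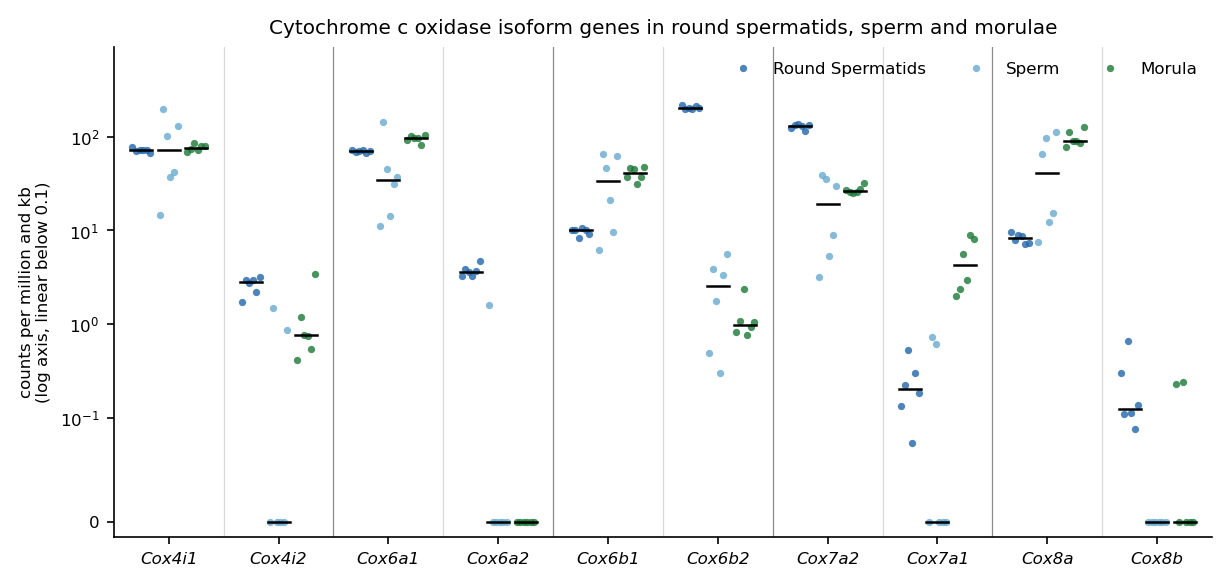
Level of each of the 10 genes in round spermatids, sperm and morulae, in CPM per kb of gene length of Nextera counts (y axis, linear near 0 and logarithmic above), with 1 point per library and a black bar for the median of 6. Cox6b2 stands at 199 to 217 CPM per kb in round spermatids and at 5.58 or less in the other cells, and the sperm libraries spread most for the common isoforms.

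Of the 10 genes 9 were tested in this fit. Cox4i2 and Cox6a2 passed the filter on low counts only through round spermatids, and Cox7a1 only through morulae. Their direction against the other cells therefore follows in part from the filter. Between round spermatids and morulae 7 of 9 passed, 3 higher and 4 lower, where 86.6% of all 20345 genes passed. Their median was -0.39 against 1.36 over all genes, and 1.68 over all genes with library totals. Between sperm and round spermatids 7 of 9 passed, 3 higher and 4 lower (75.3% of all genes, median 0.38 against -1.24, and -2.39 with library totals). In the latter comparison 4765 genes were higher and 10560 lower, or 2497 and 13079 with library totals. In the latter the members called became 2 higher and 4 lower with library totals, and in the former 4 higher and 3 lower. With 7 of 9 members called in each comparison, the share was near the background of 86.6% and 75.3%. Cell type cannot be told apart from library preparation, and for sperm not from read layout either.

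Markers of other cell types were present in the sperm libraries. Those of epididymal epithelium stood at 1628 to 24980 CPM in sperm and 0.419 to 0.755 CPM in round spermatids, and those of leukocytes at 287 to 3968 CPM against 6.13 to 11.4 CPM. The common isoforms occur in most cell types, and the part of epididymal and leukocyte RNA in the sperm values was not tested. In sperm Cox6b2 rested on 1 to 18 counts per library. Its share was 7.40%, 1.40% and 25.5% in the 3 HFD libraries and 5.62%, 3.66% and 8.19% in the 3 LFD libraries, so that the groups overlapped. In the HFD library at 25.5% the 15 Cox6b2 counts were 34.9% of the counts of the pair before length correction, with a 95% Wilson interval of 22.4% to 49.8%.

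The other complex IV genes changed in both directions. Of the 10 other structural genes 4 were higher and 5 lower in round spermatids than in morulae. Cox8c, a testis isoform of COX8, had the largest difference (10.39 ± 0.44, log2, edgeR adjusted p = 7.22e-14), at 206 to 239 CPM in round spermatids, with 27 counts in sperm, 9 in morulae and none in liver or gastrocnemius. Cox7b, a common subunit, had the smallest (-5.81 ± 0.31, adjusted p = 1.95e-12), at 0.283 to 1.09 CPM in round spermatids against 23 to 34.4 CPM in morulae. Its testis paralog Cox7b2 and the Ndufa4 paralog Ndufa4l2, named after their values were seen, stood at 70.0 to 80.5 CPM and 30.3 to 36 CPM in round spermatids and were higher than in morulae by 6.90 ± 0.60 (adjusted p = 1.72e-09) and 8.01 ± 0.64 (adjusted p = 5.06e-10). Of the electron donors, the testis cytochrome c Cyct was higher by 2.15 ± 0.29 (adjusted p = 7.12e-07) and the somatic Cycs lower by -3.21 ± 0.24 (adjusted p = 1.88e-10). Of 25 assembly factors 22 were tested, and 4 were higher and 13 lower in round spermatids, from 3.63 ± 0.36 for Tmem177 (adjusted p = 1.31e-08) to -4.42 ± 0.35 for Cox15, which makes heme A (adjusted p = 3.77e-10).

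In sperm against round spermatids 3 of the 10 structural genes were higher and 6 lower, and 9 of 22 assembly factors were higher and 7 lower, which became 3 and 9 with library totals. Cox8c (-6.04 ± 0.37, edgeR adjusted p = 3.37e-11) and Cox7b (6.05 ± 0.32, adjusted p = 5.17e-12) were again at the ends of the structural list, in the reverse order. The genes most like Cox6b2 across the 18 Nextera libraries were 1700120E14Rik (Pearson's r of log2 CPM 0.992), Arc (0.992) and Gm2396 (0.99), over 20345 genes. These points fall into 3 cell types and are not independent.

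Paternal diet was compared in sperm first, in libraries scaled by TMM, with the values given in CPM in the order of HFD and then LFD libraries. Cox8a had 9.34, 13.1 and 11.9 CPM on HFD and 14.1, 34.1 and 41.0 CPM on LFD. Cox7a2 had 6.85, 9.82 and 11.9 CPM on HFD and 14.4, 22 and 18.8 CPM on LFD. For both genes every HFD library lay below every LFD library, a pattern found in the lower direction in 12.2% and in the higher direction in 8.21% of the 8643 genes tested.

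Neither difference passed the test. Cox8a differed by -1.37 ± 0.58 (log2 of HFD over LFD, edgeR unadjusted p = 0.0323, adjusted p = 0.329) and Cox7a2 by -0.94 ± 0.59 (adjusted p = 0.545). The other tested members overlapped between the diets. Cox4i1 had 51.7, 113 and 92.8 CPM on HFD and 121, 103 and 136 CPM on LFD (-0.49 ± 0.46, adjusted p = 0.712). Cox6b1 had 9.96, 29.5 and 9.80 CPM on HFD and 18.1, 21.5 and 29.6 CPM on LFD (-0.50 ± 0.60, adjusted p = 0.778). Cox6a1, at 18.1, 19.6 and 31.5 CPM on HFD and 39.9, 20.9 and 17.4 CPM on LFD, differed by -0.17 ± 0.54 (adjusted p = 0.929). The testis isoform Cox6b2, at 1.25, 0.654 and 5.25 CPM on HFD and 1.69, 1.28 and 4.12 CPM on LFD, differed by 0.10 ± 1.02 (adjusted p = 0.980) and by -1.41 with library totals.

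Across all genes edgeR called none in sperm (0%), with 1124 at an unadjusted p under 0.05, while DESeq2 called 295 (272 higher and 23 lower on HFD) and limma-voom 0. The 6 members tested had a median of -0.49 against -0.07 over all genes. The calls depended on scaling, and TMM factors ran from 0.440 to 2.62 between these libraries. With library totals the median over all genes was -1.84, 3357 genes were called (3356 of them lower on HFD), and Cox4i1, Cox6a1, Cox6b1, Cox7a2 and Cox8a were among those lower. Epididymal markers summed to 1628, 2051 and 2879 CPM on HFD and 24980, 8527 and 3014 CPM on LFD, and leukocyte markers to 287, 556 and 835 CPM on HFD and 3968, 2197 and 1572 CPM on LFD. In CPM of library totals both lists were lower in every HFD library than in every LFD library. On the TMM scale used for the genes they overlapped, with epididymal markers at 3704, 3994 and 4055 CPM on HFD and 9522, 5456 and 1980.3 CPM on LFD and leukocyte markers at 653, 1083 and 1176 CPM on HFD and 1513, 1406 and 1033 CPM on LFD. The share of mtDNA-encoded counts was 79.0%, 84.3% and 78.1% on HFD and 43.5%, 64.7% and 63.4% on LFD, without overlap. The part of these lists and of this share in the levels of the isoform genes was not tested.

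In morulae of HFD-fed and LFD-fed fathers the members overlapped in every case. Cox4i1 had 103, 118 and 121 CPM with HFD fathers and 136, 114 and 122 CPM with LFD fathers (-0.12 ± 0.11, log2, edgeR). Cox8a had 46.6, 73.0 and 52.1 CPM and 57.4, 57.6 and 77.2 CPM (-0.17 ± 0.17), and Cox6a1 63.0, 74.9 and 56.2 CPM and 69.2, 69.2 and 72 CPM (-0.12 ± 0.12). These common isoforms spread little between libraries of a diet. Cox6b1 ranged from 22.9 to 34.3 CPM over both diets (-0.07 ± 0.19) and Cox7a2 from 24.1 to 29.7 CPM (-0.05 ± 0.16).

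The restricted isoforms varied more from library to library than between the diets. Cox7a1 had 1.03, 1.33 and 4.64 CPM with HFD fathers and 3.02, 1.63 and 4.25 CPM with LFD fathers (-0.35 ± 0.60), and its share of the pair was 6.91%, 8.44% and 24.3% against 18.1%, 10.5% and 20.1%. Cox6b2 had 0.876, 1.24 and 1.01 CPM with HFD fathers and 2.67, 0.860 and 1.14 CPM with LFD fathers (-0.57 ± 0.66). Cox4i2, too low to be tested, had 4, 11 and 5 counts with HFD fathers and 7, 7 and 33 with LFD fathers. The 33 counts came from the library of 12133872 counts.

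Of the 7 members tested in morulae none passed, as edgeR called none of the 13447 genes (0%), with 858 at an unadjusted p under 0.05, while DESeq2 called 18 and limma-voom 0. Groups without overlap occurred in 5.94% of all genes in the higher and 6.18% in the lower direction, and in none of the members. Their median was -0.12 against 0.01 over all genes. Of the other complex IV genes none passed in either comparison. Of the assembly factors in morulae, Cox18, an insertase for the mtDNA-encoded subunit COX2, stood highest at 0.85 ± 0.21 and Sco1, a copper factor, lowest at -0.51 ± 0.22 (adjusted p = 0.456 and 0.743). The 3 mtDNA-encoded subunits had a median of -0.82 in morulae, with mt-Co1 highest and mt-Co3 lowest. Of these, 2 had an unadjusted edgeR p under 0.05. In sperm only mt-Co1 was tested, at 2.13 with an unadjusted edgeR p under 0.05. With library totals it was 0.44 and above that p.

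**Figure D5:**
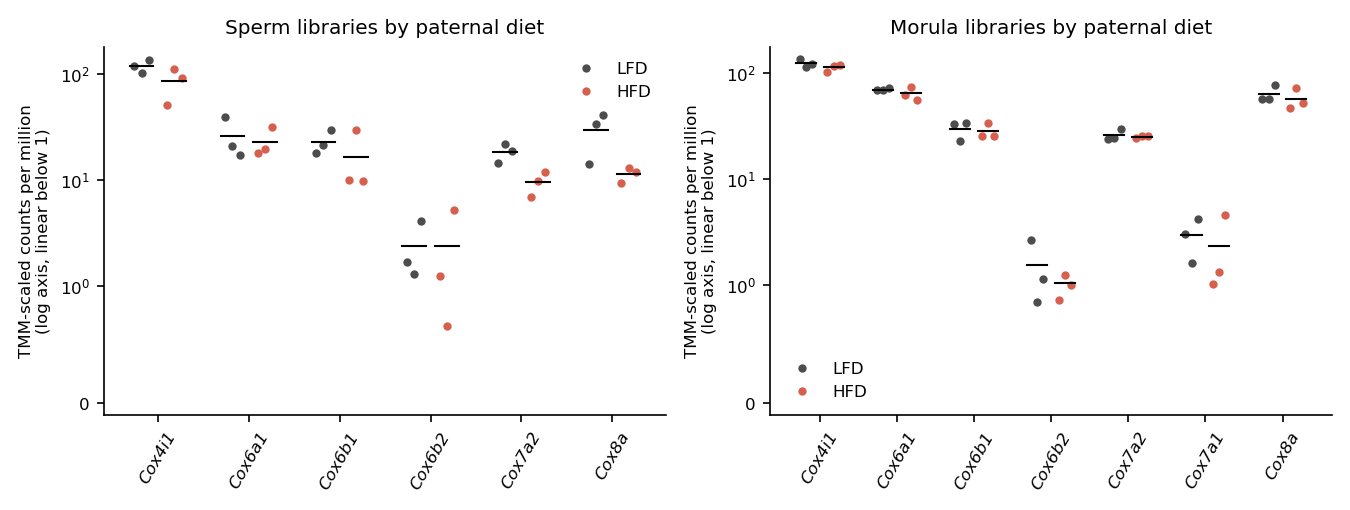
TMM-scaled level (CPM, y axis) of the tested isoform genes (x axis) in sperm and in morulae, with 1 point per library, coloured by the diet of the male (HFD and LFD), and a black bar for the mean of 3. The y axis is logarithmic above 1 CPM and linear below. In sperm the HFD points of Cox7a2 (6.85 to 11.9 CPM) and Cox8a (9.34 to 13.1 CPM) lie below all LFD points, and in morulae the diets overlap for every gene.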

How the data were processed

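Per the labels and the study's methods, the authors ran BBDuk (trimming), STAR (alignment to GRCm38) and featureCounts (reads per gene) within Artificial Intelligence RNA-Seq, and deposited raw counts in 6 tables (6 libraries each). The versions of these tools are not given in the sources used here. Counts were used as deposited. The diet of a sperm or morula column was read from the letters of its name, and the tissue of the other columns from the table that holds them, checked by marker genes. Gene lengths for CPM per kb came from the tables.

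Differences were tested with the two-sided quasi-likelihood test of edgeR 4.0.16 (R 4.3.3) after TMM scaling, on genes kept by filterByExpr at min.count 10. A p under 0.05 after Benjamini-Hochberg adjustment over all genes tested counted as called. There were 4 fits: sperm diet, morula diet, the 3 QuantSeq tissues and the 3 Nextera cell types. The study's methods name NOISeq. Alternatives were DESeq2 1.42.0, limma-voom (limma 3.58.1), DESeq2 size factors, library totals, nuclear genes only, no filter on low counts, a replicate block (sperm), leaving out each library (both diet fits), and, for isoform shares, counts with or without gene length. Leaving out the eWAT libraries of 3512177 and 3305967 counts, the gastrocnemius library of 369772 and the LFD sperm library of 2560219 was added after the data had been seen. The isoform genes, the lists of other complex IV genes and markers, and the tests were chosen with earlier results of these data known. All 10 isoform genes are named, of the other lists the genes with the largest and the smallest difference in the first contrast of a fit, and the 3 genes most alike by Pearson's r of log2 CPM (prior count 2), of which 1 is not reported here. Genes outside this rule are marked as such or were set beside their counterpart (mt-Co1, Cycs, Cyct, Cox7b2, Ndufa4l2). The study's methods give 3 mice per diet for round spermatids. For the other samples the labels do not say that they come from separate animals, so p-values measure the spread between samples, which may be technical. Coding sequences were aligned in Python 3.11.15, near copies were searched with BLAST+ 2.17.0, SciPy 1.17.1 gave Wilson intervals and matplotlib 3.10.9 the figures. The fits were tested on simulated counts.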

Additional observations from a re-analysis of the deposited data

Results flagged for a closer look

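In 60 groups of 6 libraries (10 levels in CPM and 5 isoform shares in each of 4 tissues) the gap between the highest or lowest library and its nearest neighbour was set against the range. By Dixon's criterion 13 groups held a library apart. Its nominal rate of about 1 in 20 holds for normally distributed values and not for groups where most libraries had 0 counts. A gene's level and its share are also not independent, so the 13 groups cannot be set against that rate. In liver the library of 2036237 counts was highest for Cox6a2 (3.44 CPM and 1.52% of the pair, others 0) and for Cox7a2 (364 CPM, others 164 to 202), and the library of 2347546 counts for Cox4i2 (0.852 CPM and 0.484% of the pair, others 0). In eWAT the library of 3305967 counts was highest for Cox6a2 (26.9 CPM and 9.16% of the pair, others 0 to 5.16 CPM and 0% to 2.21%), the library of 3512177 counts for Cox4i1 (361 CPM, others 188.6 to 246), and the library of 1338149 counts was lowest for Cox6b1 (90.4 CPM, others 147 to 169). In gastrocnemius the library of 369772 counts was highest for Cox6b2 (2.70 CPM and 1.23% of the pair, others 0 to 0.563 CPM and 0% to 0.235%). In round spermatids the library of 21193427 counts was highest for Cox8b (0.236 CPM and 6.85% of the pair, others 0.0322 to 0.107 CPM and 1.23% to 2.98%). The values of Cox4i2, Cox6b2 and Cox8b rest on 5 or fewer counts in the library concerned.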

How the results depend on the processing

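Of 503 log2 differences of isoform genes recomputed under an alternative, 454 kept direction and call, 20 gained and 9 lost the call, and 20 changed sign. Of 60 mean shares, 49 moved by less than the spread between libraries. With library totals the sign turned for Cox6b2 in sperm by diet (-1.41), for Cox4i1 (-0.37) and Cox7a2 (-0.10) of gastrocnemius over eWAT, for Cox4i1 (0.51), Cox6a1 (0.21) and Cox6b1 (0.36) of eWAT over liver, and for Cox6a1 (-0.59) and Cox7a1 (-0.28) of sperm over round spermatids. In sperm by diet, library totals called 3357 genes, 5 of them isoform genes, no filter 41 and DESeq2 295, against 0. A replicate block on the numbers in the sperm column names, which are not known to pair the libraries, called 2 genes and gave -1.44 for Cox6b2 (-0.067 without filter). Some of these numbers occur in a single diet, so the libraries that bear them add nothing to the diet difference in that fit. No paired analysis was possible for morulae because the columns of both diets share no number. There no filter called 63 genes, DESeq2 18, and leaving out single libraries 0 to 2, with the 2 calls arising when the HFD library of 11776603 counts was left out. With no filter, 27642 genes were called between round spermatids and morulae, against 17614. Leaving out single libraries moved Cox6a1 (-0.48 to 0.29) and Cox6b2 (-1.29 to 0.80) in sperm and Cox6b1 (-0.24 to 0.021), Cox6b2 (-0.87 to 0.051), Cox7a1 (-1.33 to 0.0051) and Cox7a2 (-0.11 to 0.049) in morulae. The mean Cox7a1 share of gastrocnemius was 81.8% per kb. As CPM of nuclear counts, the number of isoform genes with their highest median level within a kit fell from 1 to 0 in liver and from 5 to 3 in morulae and rose from 0 to 2 in sperm. The cause of these changes was not tested. Depth limits the restricted isoforms most, and 0 counts in the shallowest gastrocnemius library allow 8.11 CPM.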
